A study of Mus musculus with 9 samples.

Results

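Semaphorins, plexins and neuropilins were read in layer IV of the barrel cortex by 48 probe sets for 26 genes, out of 22690 probe sets on the array. They were found by gene symbol alone: semaphorins of classes 3 to 7 (17 genes), plexins (7 genes) and the neuropilins Nrp1 and Nrp2. The signal came from 9 mice at postnatal day 5, each on its own Affymetrix array. The mice were C57BL/6 animals that were knockout (KO), heterozygous (HZ) or wild type (WT) for Gap43, which encodes the growth cone protein GAP-43, with 3 mice per genotype. No other allele or agent is named in the labels, and the labels do not say which part of Gap43 is deleted. The tissue was laser microdissected, so each array reads neurons, glia and vessels of the layer together with whatever bordered the dissected piece. The question of the series is which genes of synapse and barrel map formation respond to loss of GAP-43.

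Semaphorins are guidance cues that steer growing axons and dendrites, mostly by repulsion, and plexins are their signalling receptors. Class 3 semaphorins are secreted and usually bind a neuropilin that sits beside an A-type plexin, whereas classes 4 to 7 are held in the membrane of the signalling cell and mostly bind plexins directly. Activated plexins act on small GTPases and on the growth cone cytoskeleton, and in the cortex they shape thalamic and callosal axons, dendrites and synapses.

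Values are MAS5 signals, linear intensities that had been scaled to a common level on every array. Different probe sets bind with different strength, so levels are compared between arrays and not between genes. Differences are given as log2(signal + 16), which understates the change of dim probe sets. The test was limma over the brightest 60% of probe sets (a mean of at least 121 over the 9 arrays), adjusted over all 13576 of them with a threshold of 0.05. Of the 48 family probe sets 24 were above that level, for 21 genes. The 5 genes with no probe set above it were Sema3b, Sema3f, Sema5a, Sema6b and Plxnb3. With 3 arrays per genotype, the number of arrays limits every value below.

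Gap43 itself, read by 1 probe set, gave 979, 1930 and 1299 on the KO arrays, against 5015, 5039 and 4389 on the HZ arrays and 7089, 4746 and 4294 on the WT arrays. Its log2 change was -1.95 in KO against WT (limma adjusted p = 0.0207), -1.82 in KO against HZ (0.0428) and -0.13 in HZ against WT (0.917). The first call ended without KO 3 (0.0797), HZ 2 (0.0653), WT 1 (0.101) or WT 2 (0.0554), and the second without any of 7 arrays, at up to 0.183 without HZ 2. Across the kept probe sets, arrays correlated at 0.958 to 0.976 within a genotype and 0.947 to 0.973 between genotypes. The log2 ratio of 3' to 5' signal of the Gapdh and Actb controls, which rises as RNA is degraded or shortened in amplification, lay between 3.31 and 3.96 on 8 arrays and at 4.72 on HZ 2. Of 11 listed layer IV and upper layer markers 9 were on the array and none was at 0. Their summed signal, most of it from Mef2c, was 17346 to 19609 on KO, 17093 to 19139 on HZ and 16666 to 18866 on WT arrays.

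Among the layer IV and upper layer markers, Rorb and Rora were lower in KO than WT at an unadjusted limma p below 0.05. Neither passed the adjusted threshold. Rorb, a nuclear receptor typical of layer IV neurons, gave 325, 356 and 302 in KO, against 709, 518 and 601 in HZ and 541, 460 and 589 in WT, with every KO array below all others. Its log2 difference was -0.66 for KO from WT (limma adjusted p = 0.442) and -0.86 for KO from HZ (0.240). Rora, its relative, gave 543, 911 and 731 in KO, against 1071, 914 and 856 in HZ and 1065, 1097 and 967 in WT, with every KO array below every WT array and a log2 difference of KO from WT of -0.54 (limma adjusted p = 0.527). Of the 7 markers above the filter, 2 (28.6%) had an unadjusted limma p below 0.05 with the lower signal in KO against WT, against 3.76% of all genes. Against HZ it was also 2 (28.6%), against 4.12% of all genes, but these were Rorb and Cux1. Cux1 had a log2 difference of -0.76 for KO from HZ (limma adjusted p = 0.459) and of -0.29 for KO from WT (0.790). Rora was at -0.40 for KO from HZ, with an unadjusted limma p of 0.0559. In KO against WT 3 of the 7 were above 0, Lhx2 (0.31), Mef2c (0.13) and Cux2 (0.09), and the median was -0.02. In KO against HZ 2 of the 7 were above 0, and the median was -0.37. The part of layer IV content in the family's values was not tested.

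No member of the family passed the adjusted threshold in KO against WT, where 0.00737% of all probe sets did (Gap43 alone). The members nearest to it all had the higher signal in KO: the receptor Plxnb2, the membrane ligand Sema4a and the secreted ligands Sema3e and Sema3a. At an unadjusted limma p below 0.05 there were 5 family probe sets of 24 (20.8%) higher in KO, against 4.41% of all probe sets, and 0 lower, against 3.59%. The count was 3 without WT 1 and 3 without WT 3. It includes Plxnb2 (means of 196 in KO, 100.5 in HZ and 89.3 in WT) and Sema3e (218, 116 and 122), which passed the filter at 121 through their KO arrays, so nothing is read from the family's share. Without any filter 6 of 48 family probe sets (12.5%) were higher in KO and 1 was lower (2.08%), against 4.05% and 3.17% of all 22626. With all arrays set to 1 median the split of all probe sets below that p turned from 599 higher and 487 lower to 369 higher and 760 lower, whereas the family split was 4 higher and 0 lower.

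Plxnb2, a receptor for class 4 semaphorins, gave 231, 191 and 167 on the KO arrays, against 123, 125 and 53.3 on the HZ arrays and 114, 72.0 and 82.3 on the WT arrays. All KO arrays lay above all others. The log2 difference of KO from WT was 1.02 (95% interval 0.38 to 1.66), or 2.03-fold, and limma gave an adjusted p of 0.464. Against HZ the difference was 0.93 (95% interval 0.29 to 1.57, limma adjusted p = 0.484), and 0.59 without HZ 3. It was 0.09 for HZ against WT. The WT mean of 89.3 ± 21.7 and the HZ mean of 100.5 ± 40.9 (SD, n = 3) were below the level at which probe sets were kept, so this probe set passed the filter through its KO arrays.

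Sema4a, a membrane ligand that binds plexins of the B and D type, was read by 2 kept probe sets. The brighter gave 668, 678 and 622 on the KO arrays, against 479, 515 and 465 on the HZ arrays and 451, 547 and 424 on the WT arrays. The dimmer gave 237, 187 and 160 in KO, against 166, 139 and 168 in HZ and 134, 124 and 141 in WT. On both, every KO array lay above every WT array. On the brighter one every KO array also lay above every HZ array, while on the dimmer one KO and HZ overlapped. The log2 differences of KO from WT were 0.46 (95% interval 0.13 to 0.79, limma adjusted p = 0.521) and 0.48 (0.05 to 0.91, limma adjusted p = 0.581). The name of the brighter probe set ends in x_at, the mark for probes that can also match other transcripts, and the dimmer one has no such mark.

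Sema3e, a secreted ligand that binds Plxnd1 without a neuropilin and is known from deep-layer cortical neurons, gave 188, 282 and 183 on the KO arrays. Its HZ arrays gave 79.9, 154 and 113 and its WT arrays 203, 95.5 and 66.2. All KO arrays exceeded all HZ arrays, but WT 1 lay inside the KO range. The log2 difference of KO from WT was 0.86 (95% interval 0.13 to 1.60, limma adjusted p = 0.569), and it was 0.55 without WT 3 and 1.26 without WT 1. Summed signal of 10 deep layer and subplate markers was 1756, 2871 and 3926 in KO, against 2257, 2716 and 1993 in HZ and 3651, 2751 and 2007 in WT. The array with the highest sum had the highest Sema3e in HZ and in WT and not in KO. The part of deep-layer tissue in these values was not tested. In such dissected tissue, fewer cells of a type and less RNA per cell cannot be told apart.

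Sema3a, the class 3 ligand that collapses growth cones through Nrp1 and A-type plexins, gave 1111, 1307 and 860 on the KO arrays, against 768, 795 and 807 on the HZ arrays and 721, 991 and 733 on the WT arrays. Every KO array lay above every HZ array, while WT 2 exceeded KO 3. The log2 difference of KO from WT was 0.41 (95% interval 0.01 to 0.81, limma adjusted p = 0.614). Sema3c, the other class 3 ligand above the filter, averaged 157 ± 23.8 in KO, against 123 ± 13.7 in HZ and 133 ± 27.9 in WT (SD, n = 3). Its log2 difference of KO from WT was 0.23 (limma adjusted p = 0.823), and the KO and WT arrays overlapped. It was 0.12 without KO 2 and 0.066 without WT 3. For Sema3a the difference was 0.27 without KO 2.

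**Figure D1:**
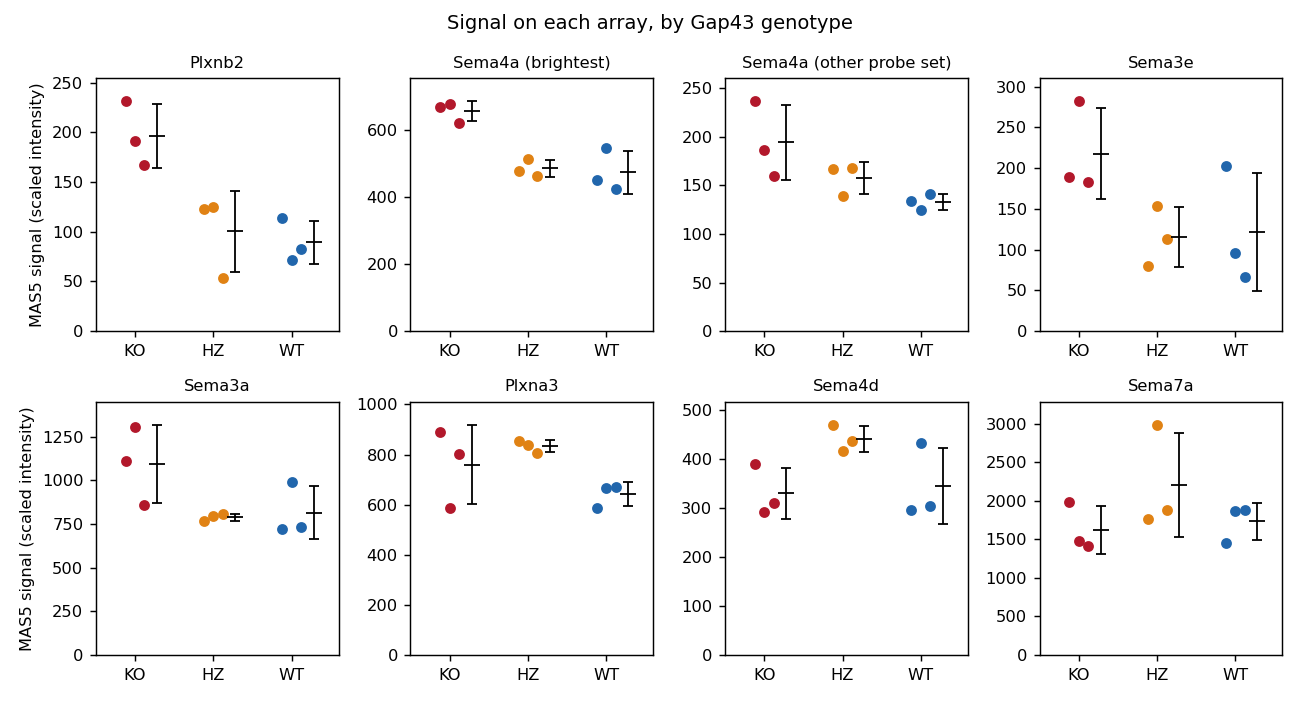
MAS5 signal (scaled intensity, linear axis from 0) of 8 probe sets, with 1 point per array in KO, HZ and WT mice and the mean ± SD (n = 3) beside the points. The 3 KO points of Plxnb2 and of both Sema4a probe sets stand above all WT points, the Sema3e and Sema3a points overlap between KO and WT, and the Sema7a mean in HZ rests on 1 high array.

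The sequences before the transcription starts of the members with the higher KO signal are shown for genes chosen after their values were seen, as those nearest to the threshold. They are the 250 bases before the RefSeq start (GRCm38.p6), 5′ to 3′ on the gene's strand, for Plxnb2 (2 starts, minus strand, chr15:89180789-89181038 for the 5′-most and chr15:89173952-89174201 for the other), Sema3e (plus strand, chr5:14025026-14025275) and Sema3a (plus strand, chr5:13396534-13396783). Capitals mark GC boxes, the letters GGGCGG on either strand, a motif of Sp1-type factors.
Plxnb2, 5′-most start: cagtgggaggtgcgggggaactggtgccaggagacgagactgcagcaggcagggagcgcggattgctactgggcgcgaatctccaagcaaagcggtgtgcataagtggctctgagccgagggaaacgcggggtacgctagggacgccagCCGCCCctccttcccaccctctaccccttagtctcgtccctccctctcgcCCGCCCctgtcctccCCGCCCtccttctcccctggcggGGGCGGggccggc
Plxnb2, other start: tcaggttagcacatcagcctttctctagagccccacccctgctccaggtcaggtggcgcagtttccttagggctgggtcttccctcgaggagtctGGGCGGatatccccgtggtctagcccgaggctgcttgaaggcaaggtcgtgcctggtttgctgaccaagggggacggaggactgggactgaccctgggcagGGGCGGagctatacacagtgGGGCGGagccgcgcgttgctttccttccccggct
Sema3e: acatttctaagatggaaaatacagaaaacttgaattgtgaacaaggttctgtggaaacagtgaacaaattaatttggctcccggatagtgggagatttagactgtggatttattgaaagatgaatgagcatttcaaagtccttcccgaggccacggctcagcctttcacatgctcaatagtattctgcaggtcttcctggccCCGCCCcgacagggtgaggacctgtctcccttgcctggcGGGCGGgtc
Sema3a: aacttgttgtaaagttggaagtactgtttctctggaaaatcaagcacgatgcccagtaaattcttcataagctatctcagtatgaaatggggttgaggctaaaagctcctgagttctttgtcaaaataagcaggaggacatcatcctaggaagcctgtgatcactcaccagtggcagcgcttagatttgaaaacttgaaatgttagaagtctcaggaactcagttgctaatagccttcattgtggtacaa
The windows held 4, 3, 2 and 0 GC boxes in that order, and 20, 13, 7 and 2 CpG sites. Of the 4 windows of Sema4a, 3 held a GC box. The 32 windows of the 22 family genes in the table had a median of 63.8% G and C, and 71.9% of them held a GC box, against 42.6% of 21263 windows of protein-coding genes, whose median was 55.6%. A TATA box, searched as TATAAA, was found in 0 family windows and in 11.6% of protein-coding ones. The CCAAT box was found in 18.8% of family windows and 35.4% of protein-coding ones. CACGTG, the E box, was in 6.25% and 6.63%, and the cyclic AMP element TGACGTCA was in 0 and 1.92%. The motifs were searched on both strands, each on its own, so matches of different motifs may overlap. A match is a description of letters in the window, and windows of one gene can overlap.

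Ligands and receptors are set side by side here by counts and medians, and the difference between them was not tested. Of 13 semaphorins above the filter 9 had a log2 difference above 0 in KO against WT, with a median of 0.18, while 5 of the 8 receptors did, with a median of 0.04. Over all 8503 genes above the filter 53.6% were above 0 and the median was 0.02. The secreted class had 3 of 3 above 0 and a median of 0.41, and the membrane ligands had 6 of 10 and a median of 0.11. Plexins had 3 of 6 above 0 with a median of -0.03, and both neuropilins were above 0. These are counts of correlated genes on the same arrays, so they describe the family and test nothing. On single arrays the median deviation of the 21 genes from their own means was 0.17, -0.08 and 0.05 in KO, 0.01, 0.10 and 0.04 in HZ, and -0.23, 0.08 and -0.18 in WT. WT 2 lay above KO 2 and KO 3, so the genotypes overlapped on this measure.

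**Figure D2:**
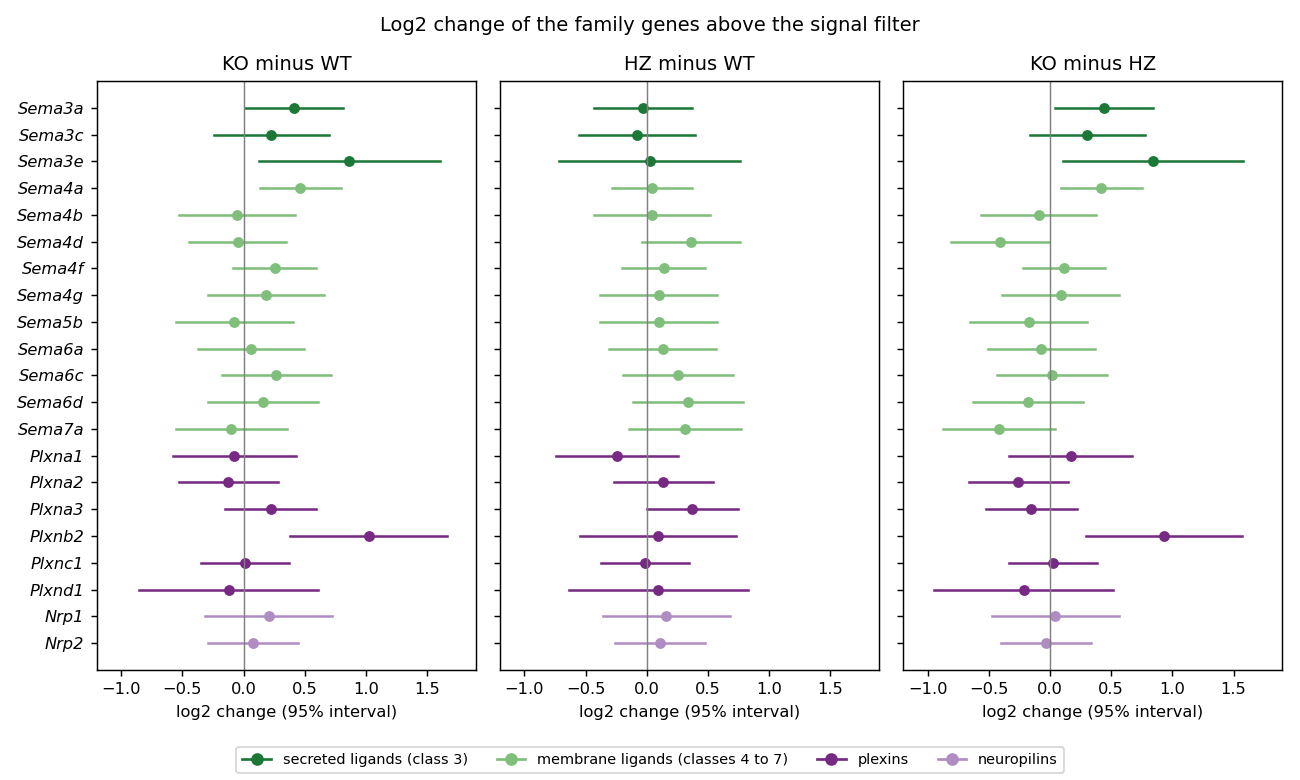
Log2 change (x axis) with its 95% interval for the 21 family genes above the signal filter, coloured by role, in KO against WT, HZ against WT and KO against HZ. In KO against WT the intervals of Plxnb2, Sema4a, Sema3e and Sema3a lie above 0, and all others cross it.

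Among the membrane ligands of class 4 other than Sema4a, log2 differences of KO from WT lay between -0.05 and 0.25. Sema4f, a ligand found at glutamatergic synapses, averaged 517 ± 75.2 in KO, against 473 ± 30.7 in HZ and 428 ± 12.7 in WT (SD, n = 3), with a log2 difference of KO from WT of 0.25 (limma adjusted p = 0.722). One KO array, at 435, lay inside the WT range of 415 to 441, and without KO 3 the difference was 0.16. Sema4b and Sema4d had log2 differences of -0.05 each and Sema4g of 0.18. In class 6, whose ligands bind A-type plexins, Sema6c averaged 803 ± 89.1 in KO, against 792 ± 16.6 in HZ and 686 ± 239 in WT. Its WT arrays ran between 521 and 960 and enclosed every KO array. The log2 difference of KO from WT was 0.27 (limma adjusted p = 0.779), and it was 0.10 without WT 1, 0.53 without WT 2 and 0.17 without WT 3. Sema6a was at 0.06 and Sema6d at 0.15.

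Sema7a, a lipid-anchored ligand of integrins and Plxnc1 that is known for roles in barrel cortex circuits, gave 1982, 1484 and 1408 in KO, against 1761, 2983 and 1880 in HZ and 1455, 1866 and 1880 in WT. KO and WT overlapped, with a log2 difference of -0.10 (limma adjusted p = 0.925) that ran from -0.25 without KO 1 to -0.0058 without KO 3. Its receptor Plxnc1 averaged 623 ± 43.1 in KO, against 616 ± 109 in HZ and 619 ± 66.3 in WT (SD, n = 3), a log2 difference of KO from WT of 0.01 (limma adjusted p = 0.990), whose 95% interval ran from -0.35 to 0.37. The sign of that value turned with all arrays set to 1 median (-0.05). Sema5b, a repellent ligand of A-type plexins, was at -0.08 (limma adjusted p = 0.947), and its 95% interval ran from -0.55 to 0.40. It was 0.04 without KO 2 and 0.09 without WT 2.

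For the receptors other than Plxnb2, KO and WT arrays overlapped on every kept probe set. Plxna3, which takes part in responses to class 3 ligands, gave 892, 585 and 802 in KO, against 856, 839 and 806 in HZ and 587, 668 and 669 in WT. Its KO arrays spanned those of both other genotypes, and the log2 difference of KO from WT was 0.22 (limma adjusted p = 0.780). It was 0.097 without KO 1 and 0.39 without KO 2. Plxnd1, the Sema3e receptor, gave 461, 507 and 177 in KO, against 533, 323 and 389 in HZ and 277, 413 and 478 in WT. KO 3 was the lowest of all 9 arrays. The log2 difference of KO from WT was -0.12 (95% interval -0.85 to 0.61, limma adjusted p = 0.944), and it was 0.33 without KO 3 and 0.04 without WT 3. Plxna1 and Plxna2 were at -0.08 and -0.13.

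Nrp1, the neuropilin that binds Sema3a, was read by 3 kept probe sets. The brightest gave 646, 1155 and 1420 in KO, against 972, 1161 and 856 in HZ and 885, 844 and 926 in WT. KO spread far wider than WT, with an SD of 393 against 41.0, and its lowest array lay under every WT array. The log2 differences of KO from WT on the 3 probe sets were 0.20, 0.04 and 0.28, and for the brightest the limma adjusted p was 0.858. Without KO 3 the brightest gave -0.03. KO 1 had the lowest and KO 3 the highest Nrp1, as they had for the summed deep-layer markers given above, on the brightest probe set alone. On the other 2 kept Nrp1 probe sets KO 3 was also the highest, but KO 2 was the lowest. In WT the second brightest (519, 471 and 325) had the order of the deep-layer sums, while the brightest and the dimmest did not. In HZ the brightest and the second brightest (384, 544 and 289) had that order, and the dimmest (196, 195 and 178) did not. Whether these markers bear on Nrp1 was not tested. Nrp2, the neuropilin of Sema3f, averaged 252 ± 20.9 in KO, against 258 ± 28.4 in HZ and 239 ± 31.0 in WT (SD, n = 3), a log2 difference of KO from WT of 0.08.

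Log2 differences of KO from WT can be read pair by pair for ligands and their known receptors. Sema3e was at 0.86 and Plxnd1 at -0.12. Sema3a was at 0.41 and Nrp1 at 0.20 on its brightest probe set, with the A-type plexins between -0.13 and 0.22. Sema4a was at 0.46, with Plxnb2 at 1.02 and Plxnd1 at -0.12. Sema4d, which also binds B-type plexins, was at -0.05. Sema7a was at -0.10 and Plxnc1 at 0.01, and Sema6a was at 0.06 and its receptor Plxna2 at -0.13. Apart from Sema4a with Plxnb2, none of these pairs held 2 members whose 95% intervals lay above 0. Plxnb2 passed the filter through its KO arrays, so nothing is read from that pair.

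In HZ against WT, 0 probe sets in all passed the adjusted threshold in limma (0%), while 556 higher and 296 lower had an unadjusted p below 0.05. In the family 1 of 24 had an unadjusted p below 0.05 with the higher signal in HZ (4.17%), against 4.1% of all probe sets, and 0 with the lower signal, against 2.18%. The family's share was near the background with the filter, while without it 6 of 48 (12.5%) were higher and 0 lower, against 3.995% and 2.01% of all. The 1 was Plxna3, whose HZ arrays all lay above its WT arrays, with a log2 difference of 0.37 (95% interval 0.00 to 0.74, limma adjusted p = 0.792). Without any 1 of 6 arrays (KO 3, HZ 1, HZ 2, HZ 3, WT 1 or WT 3) the count was 0, and without WT 2 it was 2. Every HZ array lay above every WT array for 4 family probe sets of 24 (16.7%), of Plxna3, Sema4f, Sema6d and the dimmest kept Nrp1 one, against 8.54% of all probe sets. None lay wholly below, against 4.41% of all.

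Sema4d, a ligand of B-type plexins that is also made by oligodendrocytes, gave 469, 416 and 436 in HZ, against 296, 433 and 304 in WT. WT 2 lay inside the HZ range. The log2 difference of HZ from WT was 0.36 (95% interval -0.04 to 0.76, limma adjusted p = 0.792). Summed signal of 11 oligodendrocyte lineage markers was 5396 to 6419 in HZ and 5398 to 7573 in WT, with WT 2 the highest of all arrays. Their part in the Sema4d values was not tested. Sema6d, a ligand of Plxna1, gave 171, 172 and 164 in HZ, against 119, 150 and 124 in WT, without overlap, and its log2 difference was 0.34 (limma adjusted p = 0.802). Plxna1 was at -0.24 (limma adjusted p = 0.844), and its HZ and WT arrays overlapped. Its HZ mean of 115 ± 26.9 (SD, n = 3) was below the filter level of 121, and its WT mean was 138 ± 25.4. The difference was -0.072 without HZ 2, the array with the highest 3'/5' ratio, and -0.16 without WT 1. It was -0.37 without HZ 3 and -0.39 without WT 3.

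Sema7a had a log2 difference of HZ from WT of 0.32 (limma adjusted p = 0.806), which was 0.08 without HZ 2 and 0.19 without WT 1. Sema6c was at 0.25 (limma adjusted p = 0.824), and at 0.52 without WT 2, 0.09 without WT 1 and 0.16 without WT 3. All 10 membrane ligands had a log2 difference above 0 in HZ against WT, with a median of 0.13, while 1 of 3 secreted ligands did, with a median of -0.03. Over all genes 56.5% were above 0, with a median of 0.04. The family as a whole had 17 of 21 above 0. The count was 13 without HZ 2, the array with the highest 3'/5' ratio, and 14 without WT 1 or without WT 3. With quantile normalization or with all arrays set to 1 median it was also 14 of 21. Under that last scaling the median of all genes was -0.05, and of the probe sets with an unadjusted p below 0.05 the higher and lower ones numbered 227 and 725, in place of 556 and 296. With quantile normalization they numbered 399 and 380.

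**Figure D3:**
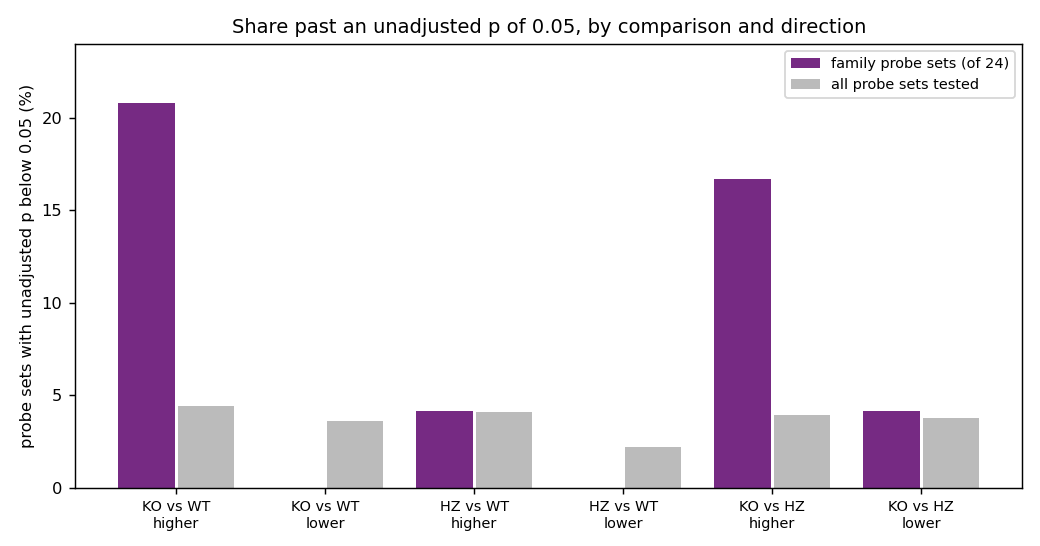
Share of probe sets with an unadjusted limma p below 0.05 (y axis, percent) for the 24 kept family probe sets and for all 13576, by comparison and direction. The family share was 20.8% for higher in KO against WT and 16.7% for higher in KO against HZ, where all probe sets gave 4.41% and 3.96%, and in HZ against WT 4.17%, against 4.1%. The KO shares count Plxnb2 and Sema3e, which passed the signal filter through their KO arrays.

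Between KO and HZ no member passed the adjusted threshold either, where 0.00737% of all probe sets did. Unadjusted p was below 0.05 for 4 of 24 family probe sets with the higher signal in KO (16.7%), against 3.96% of all, and for 1 with the lower signal (4.17%), against 3.76% of all. The 4 were Plxnb2, Sema4a, Sema3e and Sema3a, and the 1 was Sema4d. Plxnb2 and Sema3e passed the filter through their KO arrays here too, so nothing is read from that share, and without any filter it was 8.33% higher and 2.08% lower, against 3.46% and 3.73% of all. The KO arrays are the same ones as in the comparison with WT, so the 2 comparisons are not independent of each other. The count of 5 was 2 without KO 2, 3 without HZ 1, 3 without HZ 2 and 1 without HZ 3. With all arrays set to 1 median, the family split was again 4 and 1, while over all probe sets the higher and lower ones numbered 684 and 379, in place of 537 and 511.

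Every KO array lay above every HZ array for 5 family probe sets of 24 (20.8%), of Plxnb2, Sema3a, Sema3c, Sema3e and Sema4a, against 6.67% of all probe sets, and below for 1 (Sema4d, 4.17%), against 7.37%. In KO against WT that held for 3 above (12.5%), those of Plxnb2 and Sema4a, against 7.85% of all, and for 0 below, against 5.82%. Plxnb2, counted in both comparisons, and Sema3e, counted in the first, passed the filter through their KO arrays. Nothing is read from these shares. The log2 differences of KO from HZ were 0.84 for Sema3e (95% interval 0.10 to 1.58, limma adjusted p = 0.588), 0.44 for Sema3a (0.04 to 0.84, limma adjusted p = 0.611) and 0.42 for Sema4a (0.09 to 0.75, limma adjusted p = 0.545). Sema4d gave 389, 291 and 310 in KO, against 469, 416 and 436 in HZ, and its log2 difference was -0.41 (95% interval -0.81 to -0.01, limma adjusted p = 0.629). Sema7a was at -0.41 (95% interval -0.87 to 0.04, limma adjusted p = 0.680), and at -0.18 without HZ 2. The secreted ligands had 3 of 3 above 0 and a median of 0.44, the membrane ligands 4 of 10 and a median of -0.08, and the plexins 3 of 6 and a median of -0.06. The median over all genes was -0.03.

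The probe sets of one gene did not always lie on the same side. Of the 26 genes 14 had more than 1 probe set, but only Nrp1 and Sema4a had more than 1 above the filter. The 24 probe sets below it had means of 7.58 to 114 and were fitted only in a run without the filter, in which none passed either (limma adjusted p of at least 0.656 in KO against WT). Plxnc1 had log2 differences of KO from WT of 0.50, -0.07 and -0.70 on its 3 dim probe sets, beside 0.01 on the bright one. For Sema3a the dim probe sets gave -0.07 and -0.17, and for Sema3e 0.21 and -0.01. The dim Plxna3 probe set gave 0.46 for HZ against WT, the same side as the bright one at 0.37.

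Of the genes known here only from dim probe sets, Sema3f, the ligand of Nrp2 and Plxna3, gave 139, 72.4 and 102 in KO, against 124, 90.5 and 139 in HZ and 77.4, 52.9 and 45.2 in WT on its brighter probe set. Its HZ arrays all exceeded its WT arrays, and KO 2 lay inside the WT range. Without the filter the log2 differences were 0.68 for KO and 0.85 for HZ against WT (limma adjusted p = 0.670 and 0.807). Sema6b gave 95.1, 34.1 and 30.1 in KO, against 38.3, 122 and 126 in HZ and 31.4, 36.9 and 30.1 in WT, so that KO 1 stood far above the other KO arrays and HZ 1 far below the other HZ arrays, while all HZ arrays lay above all WT arrays. The brighter Sema5a probe set ran between 84.3 and 129, Plxnb3 between 73.6 and 179, and the 3 Sema3b probe sets between 3.04 and 28.8 over all arrays. KO and WT arrays overlapped on these except for 1 Sema3b probe set, whose KO arrays (7.67, 8.31 and 11.05) lay below its WT arrays (13.2, 12.8 and 15.3).

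**Figure D4:**
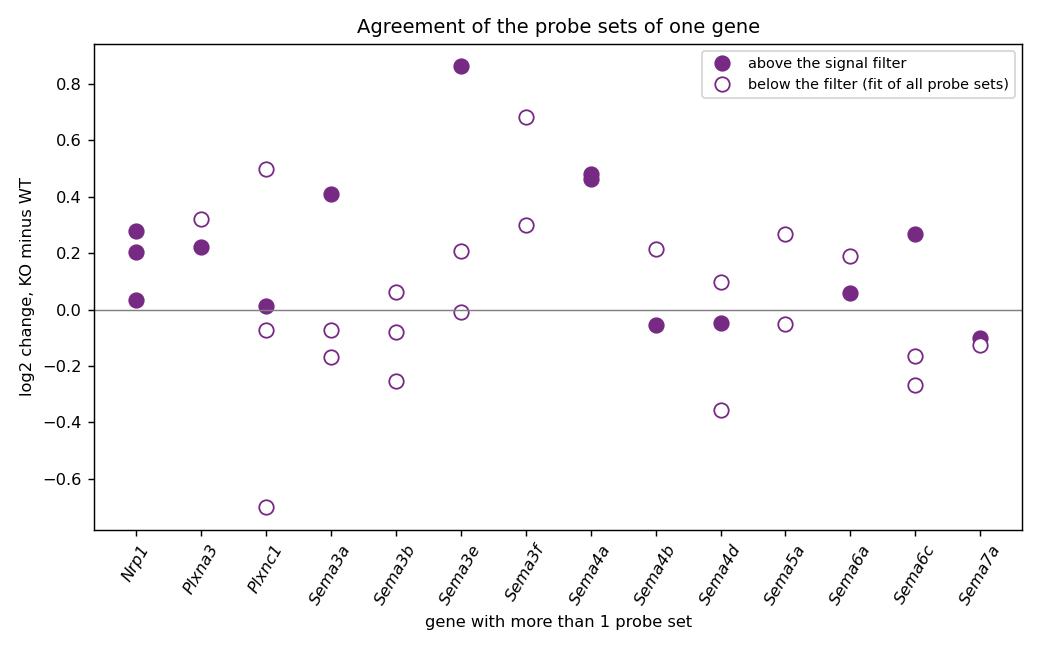
Log2 change in KO against WT (y axis) of every probe set of the 14 genes with more than 1, filled where above the signal filter and open where below it, the open ones from the fit of all probe sets. Both Sema4a probe sets lie near 0.47, while those of Plxnc1 run between -0.70 and 0.50.

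Genes that work with the family inside the cell or at its surface were taken from a list of 44 co-receptors, effectors and GTPase regulators, of which 30 were above the filter. None passed the adjusted threshold in any of the 3 comparisons. In KO against WT 20 of 30 were above 0, with a median of 0.10, and 5 had an unadjusted p below 0.05 with the higher signal in KO and 0 with the lower (16.7% and 0%), against 4.40% and 3.76% of all genes. The 5 include Cntn2, whose KO and WT means were both below the filter level and which passed it through its HZ arrays, so nothing is read from the share. Those of smallest p were Dpysl5 and Crmp1, collapsin response mediators that carry the Sema3a signal, Cdk5r1, the activator of the kinase Cdk5, and Cntn2, an adhesion molecule. The median was 0.04 with all arrays set to 1 median, where the median of all genes was -0.04, and 0.05 when the probe sets of a gene were averaged. It was 0.15 without KO 1 and 0.17 without WT 2.

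Dpysl5 gave 777, 750 and 687 in KO, against 613, 795 and 690 in HZ and 438, 546 and 575 in WT, and its KO and HZ arrays all lay above its WT arrays. Its log2 difference of KO from WT was 0.50 (limma adjusted p = 0.521) and that of HZ from WT 0.42 (0.792). Cdk5r1 averaged 3327 ± 561 in KO, against 2817 ± 445 in HZ and 2425 ± 247 in WT (SD, n = 3), a log2 difference of KO from WT of 0.45 (limma adjusted p = 0.541), with its other probe sets at 0.22 and 0.04. Crmp1 was at 0.30 (limma adjusted p = 0.565), with WT 2 at 7617 close under the lowest KO array at 7698. Cntn2 was dim, at 120 ± 15.4 in KO, against 180 ± 28.9 in HZ and 65.5 ± 52.2 in WT. Its log2 difference was 0.91 for KO (limma adjusted p = 0.561) and 1.44 for HZ (0.792) against WT, so that HZ lay highest. In HZ against WT 3 partners of 30 had an unadjusted p below 0.05 with the higher signal and 0 with the lower (10% and 0%), against 4.22% and 1.95% of all genes. Cntn2, which passed the filter through its HZ arrays, is 1 of the 3, so nothing is read from that share. In KO against HZ 3 were higher and 1 was lower in KO (10% and 3.33%), against 3.55% and 4.12% of all genes.

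The astrocyte markers lay mostly lower in KO. Of 8 astrocyte markers above the filter 7 were below 0 in KO against WT, with a median log2 difference of -0.38. Over all 8503 genes 3943 were below 0. None of the 8 passed the adjusted threshold. At an unadjusted limma p below 0.05, 5 (62.5%) were lower in KO, against 3.76% of all genes. The summed signal of all 11 listed was 19809 to 28328 in KO, against 25075 to 25687 in HZ and 24984 to 30986 in WT. Fabp7 gave the largest part, at 9337 to 14174 in KO and 8798 to 13706 in WT. Gja1 gave 2298, 2527 and 1731 in KO, against 3819, 4592 and 5081 in WT. Microglia markers had 4 of 4 below 0 with a median of -0.37 and sums of 1615 to 2077 in KO, against 1806 to 2345 in HZ and 1875 to 3808 in WT. Endothelial and mural markers, of interest for Plxnd1 and Nrp1, which vessels carry, summed to 4995 to 6302 in KO, against 6189 to 6830 in HZ and 5687 to 6116 in WT. Interneuron sums were 5356 to 8762 in KO, against 6387 to 8537 in HZ and 5503 to 9859 in WT. No listed marker was at 0 on any array. The lowest by mean were the oligodendrocyte gene Mog at 4.44 and the endothelial gene Tie1 at 7.39. The part of these cells in the family's values was not tested.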

How the data were processed

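Expression was measured on 9 Affymetrix arrays from 9 mice (3 KO, 3 HZ, 3 WT). The values deposited by the authors are linear probe set intensities made with MAS5 (Expression Console by Affymetrix, according to the submitters' processing notes), whose version and filters the labels do not state. After leaving out the highest and lowest 2%, every array averaged 500.2, so the authors had scaled the arrays, and no further scaling was applied.

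Intensities were taken as log2(signal + 16). After leaving out 64 controls, the brightest 60% of probe sets by mean were fitted with limma 3.58.1 in R 4.3.3 (genotype as the only term, all 9 arrays, eBayes with an intensity trend), with Benjamini-Hochberg adjustment over all 13576 probe sets, 2-sided. Each gene stood by its brightest probe set. Symbols came from the platform annotation (20393 probe sets with 1 symbol, 691 with several, 1555 with none), and all 26 family genes matched RefSeq by Entrez identifier. The fit code was checked on simulated data with independent noise and no array or RNA quality effect. Its pass mark for recovery covered only planted changes larger than any in the family. It therefore does not show the power for the changes reported here. Members, marker lists and partners were chosen with earlier results of these data known.

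Full statistics are given for the 8 genes of smallest p in KO against WT, the 6 in each other comparison, the gene of smallest p in each class, and 4 partners. Members below the filter were described by signal. Alternatives were other pseudocounts (1 and 64), filters (none and 40%), scalings, weights, a 3'/5' term, a replicate block and leaving out each array. Replicate numbers in the titles did not pair the arrays: of 9 same-numbered pairs, 1 correlated above 0.1 in deviation from its group mean (range -0.27 to 0.12).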

Additional observations from a re-analysis of the deposited data

How the results depend on the processing

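The count of family probe sets past the adjusted threshold was 0 in all 3 comparisons under all 19 alternatives run on probe sets. Of 492 values of 25 named-gene results, 482 kept their sign and their side of the threshold and 10 turned sign. The 10 were Plxnc1 in KO against WT with all arrays set to 1 median (-0.049) or the 3'/5' ratio as a term (-0.021), and values with an array left out, where Nrp1 ranged from -0.032 to 0.53, Plxnc1 from -0.078 to 0.068, Plxnd1 from -0.38 to 0.33 and Sema5b from -0.24 to 0.086. The family median ranged from 0.07 to 0.20 (KO against WT), 0.01 to 0.15 (HZ against WT) and -0.08 to 0.04 (KO against HZ).

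With the 40% filter 12 family probe sets were tested. In KO against WT 2 of them had an unadjusted p below 0.05, both higher (16.7%), against 4.23% of all probe sets higher and 4.25% lower. In KO against HZ 2 were higher and 1 was lower (16.7% and 8.33%), against 4.43% and 3.65% of all. In HZ against WT they numbered 6 of 48 with no filter (12.5%, all higher in HZ, against 3.995% of all probe sets higher and 2.01% lower), 3 of 24 with array weights (12.5%, all higher, against 9.21% and 4.09%) and 0 with quantile normalization, 1 median, no trend, the 3'/5' term or the replicate block. Leaving out an array gave 3 to 5, 0 to 2 and 1 to 5 of 24 for KO against WT, HZ against WT and KO against HZ. In KO against WT all were higher (12.5% to 20.8%), against 2.64% to 5.71% of all probe sets. In HZ against WT all were higher too (0% to 8.33%), against 2.53% to 5.19%. In KO against HZ 4.17% to 16.7% were higher and 0% to 8.33% lower, against 2.89% to 4.72% and 2.55% to 4.40% of all. With the replicate block, the counts were 5, 0 and 4 of 24, all higher (20.8%, 0% and 16.7%), against 4.07%, 3.47% and 3.79% of all. Plxnb2 and Sema3e passed the main filter, which these fits share, through their KO arrays, so nothing is read from the KO shares.

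Gap43 in KO against WT missed the threshold with no filter (log2 -1.95, limma adjusted p = 0.204), 1 median (-2.01, 0.0551) and no trend (-1.95, 0.101). In KO against HZ it missed with no filter (-1.82, 0.287), quantile normalization (-1.84, 0.0900), 1 median (-1.79, 0.0903), no trend (-1.82, 0.164), the 3'/5' term (-1.81, 0.050) and the replicate block (-1.82, 0.0565). Without single arrays it ran from -2.20 to -1.72 in KO against WT, from -2.08 to -1.59 in KO against HZ, and from -0.27 to 0.090 in HZ against WT. The partner median in KO against WT was 0.13 with the 40% filter, 0.15 with array weights, 0.035 with 1 median and 0.049 with the probe sets of a gene averaged. In HZ against WT it was 0.062 with the 40% filter and 0.0039 with 1 median, and in KO against HZ 0.090 with array weights and -0.0096 with probe sets averaged. With single arrays left out it ran from 0.085 to 0.17 in KO against WT, from 0.064 to 0.13 in HZ against WT and from -0.028 to 0.11 in KO against HZ. Dim signals near background and 3 arrays per genotype limit all of these values, and the causes were not tested.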
